A study of Rattus norvegicus with 6 samples.

Results

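Genes of fatty acid oxidation, peroxisomes and ketone body metabolism were followed in cultures of AR42J, an established line of rat pancreatic exocrine tumour cells, with and without dexamethasone, a synthetic glucocorticoid. The 46 listed genes were chosen by name for their place in these pathways, with earlier results of these data known. Of them, 45 had a probe set annotated to that gene alone, among 10411 genes so represented on the Affymetrix Rat 230A array. Acaa1a was not measured by a probe set of its own. Where a gene had several probe sets, the one brightest on average (mean log2 signal of all 6 arrays) stood for it. Of the 45 genes, 40 were bright enough to be tested, and Acot1, Acot2, Acox3, Acsl6 and Pex11a were too dim. Control cultures (n = 3) and cultures with 100 nM dexamethasone (n = 3) of this single line were all thawed at passage 29, plated for 24 h in 20% serum and then kept for 48 h in 5% serum. Total RNA of each culture went onto 1 array, and the experiment was run 3 times over 5 months. The comparison asks how the hormone changed the level of each messenger RNA in these cells.

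Fatty acids are joined to coenzyme A by acyl-CoA synthetases, carried into mitochondria as carnitine esters and shortened there in a repeating spiral of dehydrogenation, hydration, a second dehydrogenation and thiolytic cleavage. Electrons from the first dehydrogenation pass through electron transfer flavoprotein to the respiratory chain, and acetyl-CoA can be turned into ketone bodies. Peroxisomes run a parallel spiral on very long, branched and dicarboxylic acyl chains, where the first step makes hydrogen peroxide that catalase removes. Many genes of both organelles are known targets of the PPAR family of nuclear receptors. In the liver these pathways are known for their activity in fasting.

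With dexamethasone, 27 of the 40 tested genes rose and 2 fell, while 11 missed the threshold, which was an adjusted p of 0.05 in a limma fit over all probe sets tested. Among all 7051 genes tested, 38.4% passed (37.1% of probe sets): 17.0% rose, 21.4% fell and 61.6% did not pass. All treated arrays lay above all controls in 28 of the 40 genes, beside 22.9% of all genes. The median log2 change of the 40 genes was 0.70, beside -0.04 for all genes. The largest rises were in Ehhadh and Ech1, peroxisomal and shared enzymes of the spiral, followed by Cpt1a, the entry gate of mitochondrial oxidation. The fallers were Acsl3, an acyl-CoA synthetase, and Pex14, a part of the peroxisomal import machinery. A log2 change of at least 0.58 was reached by 24 of the 27 risers, and by 826 of the 1196 risers among all genes (69.1%, or 11.7% of all genes tested). Ehhadh and Cpt2 reached the brightness filter only through their treated arrays, so their passing into the test was tied to a rise. Signals are MAS5 intensities relative to each array's own total, so levels of different genes are not compared, and in bulk cultures less RNA per cell and fewer cells of a type cannot be told apart.

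**Figure D1:**
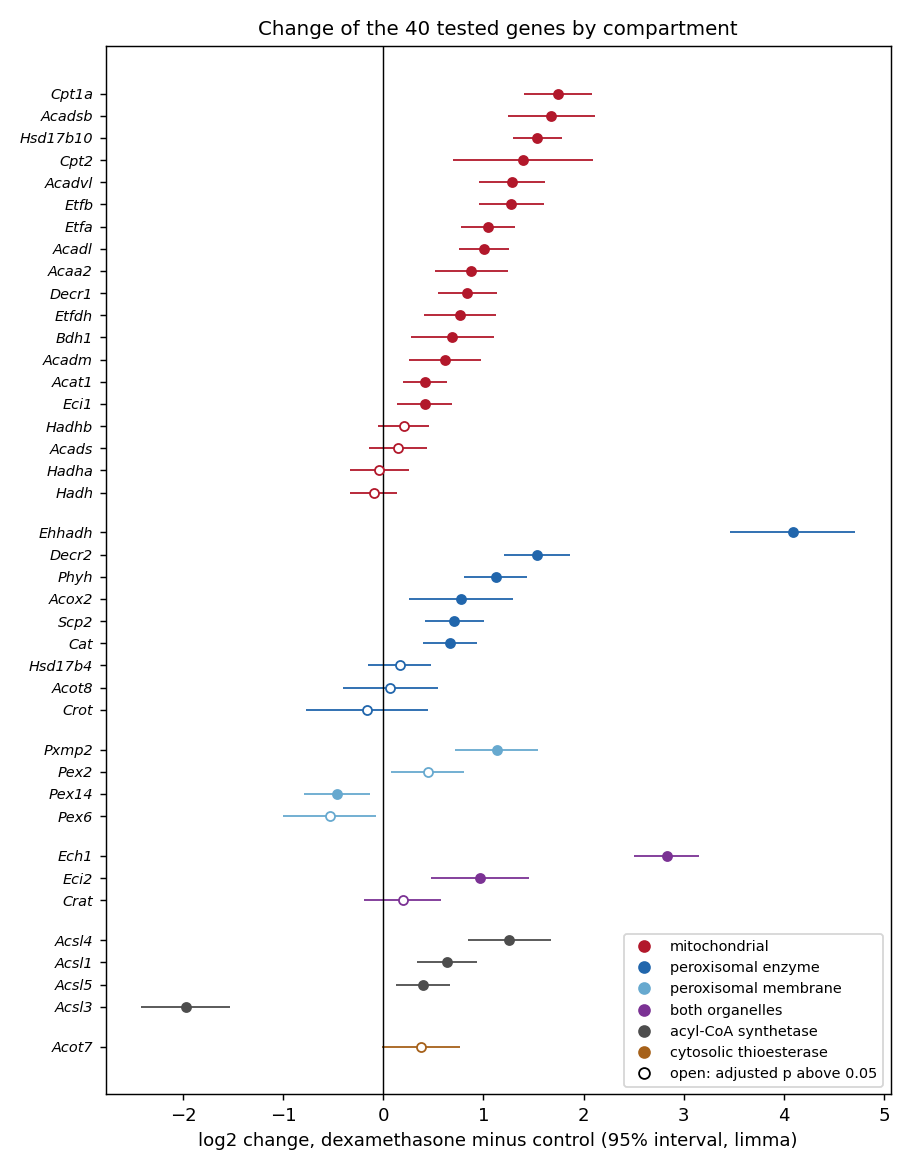
Log2 change (dexamethasone minus control, x axis) with its 95% interval from limma for the 40 tested genes, grouped by compartment, with filled points for genes past an adjusted p of 0.05 and open points for the rest. Points lie to the right of 0 for 34 of the 40 genes, beside 3290 of all 7051 genes tested. Ehhadh stands at 4.09, a value that rests on controls below background, and Acsl3 at -1.97.

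Acinar identity was checked first: all 16 measured acinar markers were above background on all 6 arrays. Their summed signals were 91759 to 112962 in controls and 156643 to 176930 with dexamethasone. Of the 14 tested, 11 rose, beside 17.0% of all genes tested. Background was set on each array as the highest signal of 27 bacterial control probe sets (51.7 to 115.9). Hepatocyte markers moved with the treatment as well: of 23 on the array, 16 were tested, 11 rose and 1 fell (17.0% and 21.4% of all genes tested). Their summed signal was 4900 to 10573 in controls and 39375 to 73944 in treated cultures. The risers with the largest changes were Hpd (95.1-fold) and Tat (at least 20.0-fold), enzymes of tyrosine breakdown, Ass1 of the urea cycle (15.6-fold), Apoa1 (14.6-fold) and Cyp2e1 (12.6-fold). Hpd, Tat and Cyp2e1 reached the brightness filter only through their treated arrays. Controls of Hpd read 89.8, 76.2 and 54.1, with control 2 below background. Ambp fell, and Ahsg, Apob, Arg1 and Cyp7a1 did not pass. Signals of Alb, which encodes albumin, were below the filter, at 75.2 to 110 in controls and 65.8 to 146 with dexamethasone, and Otc was below background on every array. The part of this change in the results below was not tested. Summed signals of 14 stromal, endothelial and immune markers were 1100 to 1318 and 1272 to 1652, with 2 tested and 1, Pecam1, higher. Pecam1 also reached the filter only through its treated arrays. None of 6 adipocyte markers was bright enough to test. Ratios of 3′ to 5′ signal were 0.973 to 1.07 for the GAPDH controls and 1.19 to 1.69 for actin, highest in dexamethasone 3. Dexamethasone 3 stood apart on the second principal component (25.3, against -11.6 and -12.6 for the other treated arrays).

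Promoter sequence was available for 39 of the 45 genes from RefSeq (assembly GRCr8), as 250 bases before to 50 after the start. It was searched on both strands for a direct repeat (AGGTCA, any 1 base, AGGTCA), to which PPAR and RXR pairs are known to bind, for an inverted repeat (AGAACA, any 3 bases, TGTTCT) known for the glucocorticoid receptor, and for the single elements AGGTCA and TGTTCT, which lie within the long motifs. Neither long motif was found in any of the 39 windows, against 0.0538% and 0.0149% of all 33469 promoters. Motifs this rare are unlikely in any 39 windows, so finding none says nothing particular about these genes. Sequence farther from the start was not searched. AGGTCA was in 7 of 39 (17.9%, against 16.2% of all promoters), 4 of them in genes that rose (Acadvl, Cat, Eci1 and Eci2) and 3 in genes that did not pass (Acot8, Hadhb and Hsd17b4). TGTTCT was in 5 (12.8%, against 20.7%). With 1 mismatch allowed, a search added after the windows had been seen, the direct repeat matched in Acadvl and Acot8 (5.13% of the 39, against 0.439% of all promoters). The inverted repeat with 1 mismatch matched in none of the 39, against 0.215% of all promoters. Shares of the 39 count genes and shares of all promoters count sequences, so no conclusion is drawn from this late search. The windows of Acadvl and Acot8 are printed because the pair shares the near direct repeat and differs in its call. Cat is added as a riser holding the single element and Ehhadh as the largest rise with no match. Capitals mark AGGTCA and the near repeat, and each line ends 1 base before the start except that of Cat, a stretch of 100 bases that begins 200 bases before it.
Acadvl, chr10:55236706-55236885, minus strand: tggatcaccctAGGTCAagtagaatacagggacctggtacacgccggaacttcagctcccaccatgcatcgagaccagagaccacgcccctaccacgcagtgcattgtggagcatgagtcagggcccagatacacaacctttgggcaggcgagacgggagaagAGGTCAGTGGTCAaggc
Acot8, chr3:173962189-173962308, minus strand: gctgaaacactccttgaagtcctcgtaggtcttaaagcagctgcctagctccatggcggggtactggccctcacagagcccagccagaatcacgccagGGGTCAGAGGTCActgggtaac
Cat, chr3:110329627-110329726, minus strand: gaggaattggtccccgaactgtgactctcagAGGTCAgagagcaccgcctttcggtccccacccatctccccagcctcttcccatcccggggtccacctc
Ehhadh, chr11:92746289-92746408, plus strand: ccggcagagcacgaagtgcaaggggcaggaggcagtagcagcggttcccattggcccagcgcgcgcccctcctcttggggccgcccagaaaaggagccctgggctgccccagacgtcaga

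Of the carnitine palmitoyltransferases, Cpt1a and Cpt2 rose. Cpt1b, a form known from muscle and part of the wider list described further on, was at 198 ± 13.8 and 191 ± 40.7 (SD) and did not pass (-0.07 ± 0.22, adjusted p = 0.838), and Cpt1c was too dim to test. Cpt1a, the enzyme of the outer membrane whose activity sets the rate of entry, had signals of 1075, 1111 and 1044 in controls 1 to 3 and of 3533, 2931 and 4519 in dexamethasone 1 to 3. Every treated array lay well above every control, and the highest was dexamethasone 3. The change was 1.74 ± 0.15 on the log2 scale (SE, adjusted p = 4.1e-05), a 3.35-fold rise, and its other probe set also rose (1.26 ± 0.16, adjusted p = 0.00041). Cpt2, which regenerates acyl-CoA on the inner side, went from 71.5, 91.9 and 191 to 264, 341 and 255, with control 2 below background. The groups did not overlap, but control 3 stood near the lowest treated array. Its change of 1.40 ± 0.31 (adjusted p = 0.00764) lost its call without replicate 1 (1.16, adjusted p = 0.0545) and without replicate 2 (1.15, adjusted p = 0.0688).

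Among the acyl-CoA dehydrogenases, which open each turn of the spiral and are named for chain length, the very-long-chain, long-chain, medium-chain and short/branched-chain genes rose, and the short-chain gene did not pass. Acadvl, for very long chains, had 276, 324 and 292 in controls and 689, 782 and 706 with dexamethasone. All treated values were well above every control value, with a change of 1.29 ± 0.14 (adjusted p = 0.000199). Acadl, for long chains, went from 1629, 1373 and 1554 to 3061, 2780 and 3306 (1.01 ± 0.11, adjusted p = 0.000187). Acadsb, which acts on short branched chains such as those from isoleucine, went from 217, 173 and 215 to 520, 555 and 915. Dexamethasone 3 was the highest, and the change was 1.68 ± 0.19 (adjusted p = 0.00022). Acadm, for medium chains, had 1002, 952 and 919 in controls and 1865, 1621 and 1054 with dexamethasone, where the third array was barely above the controls. Its change of 0.62 ± 0.16 (adjusted p = 0.0149) was not called without replicate 1 (0.48, adjusted p = 0.0902) or replicate 2 (0.55, adjusted p = 0.102). In fits without pairs it was also lost without any 1 control array or without dexamethasone 1 or 2 (0.45 to 0.65). With hybridization control scaling Acadm missed the threshold as well (0.37, adjusted p = 0.122). Acads, for short chains, had 898, 1141 and 871 in controls and 984, 1185 and 1035 with dexamethasone, and the groups overlapped. Its change was 0.14 ± 0.13 (adjusted p = 0.41) with a 95% interval of -0.14 to 0.43.

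For the trifunctional protein and for Hadh, no change passed the threshold. Hadha and Hadhb encode the subunits of this protein, which carries out the last steps on long chains, and Hadh encodes the dehydrogenase for shorter chains. Hadha had 1260, 1221 and 1312 in controls and 1402, 1153 and 1152 with dexamethasone, with overlapping groups and a change of -0.04 ± 0.13 (95% interval -0.33 to 0.25, adjusted p = 0.841). Hadhb went from 2793, 3281 and 3175 to 3602, 3360 and 3673, with every treated array above every control. That change was small, 0.20 ± 0.11 (interval -0.05 to 0.46, adjusted p = 0.186), and passed only with 75th percentile centring (0.33, adjusted p = 0.0492). Hadh had 3042, 3545 and 2959 in controls and 2876, 3253 and 2792 with dexamethasone (-0.10 ± 0.10, interval -0.33 to 0.14, adjusted p = 0.504), and passed as lower when arrays were scaled to the hybridization controls (-0.34, adjusted p = 0.0357). These 3 genes and Acads were the mitochondrial genes that did not pass, and all 4 intervals lay within 0.5 of 0 on the log2 scale. Among all genes, 1455 of the 4346 that did not pass (33.5%, or 20.6% of all genes tested) had such an interval. Acaa2, the thiolase that ends the spiral, went from 1680, 2158 and 2181 to 3491, 2805 and 5043, with no overlap and dexamethasone 3 the highest (0.88 ± 0.16, adjusted p = 0.00303). No mitochondrial gene was called lower by limma, and none had an unadjusted p under 0.05 in that direction.

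**Figure D2:**
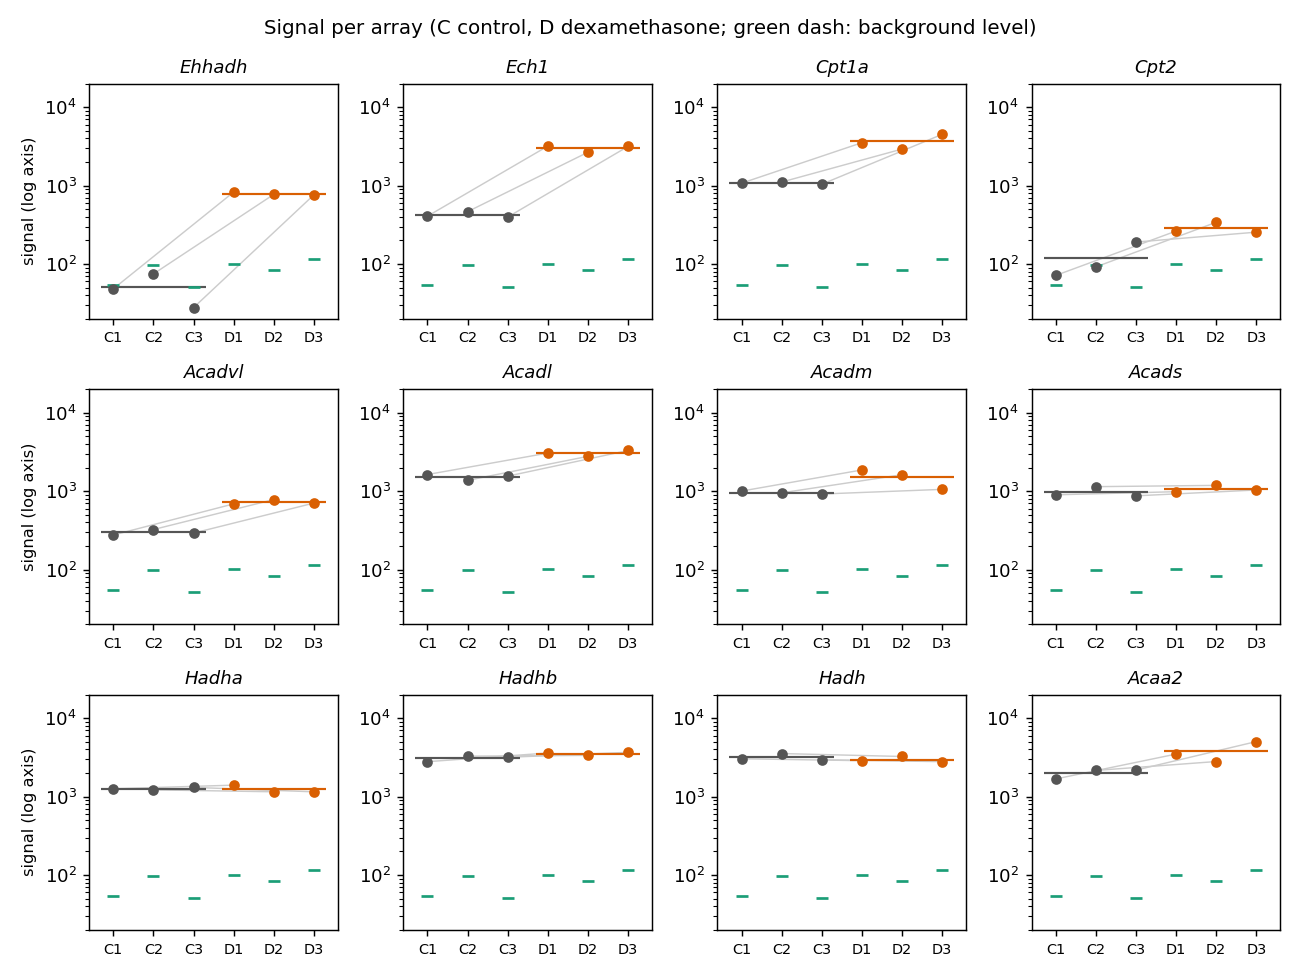
Signal (y axis, log scale) on each control (C1 to C3) and dexamethasone (D1 to D3) array for 12 genes of the spiral, with horizontal lines at group means, grey lines joining replicate pairs and green dashes at each array's background level. Ehhadh rises from at or below background to near 800, Cpt1a and Acadvl separate fully, and Acads, Hadha and Hadh lie at the same height in both groups.

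Enzymes that prepare unsaturated chains for the spiral rose. Ech1, a dienoyl-CoA isomerase found in both organelles, had 408, 466 and 398 in controls and 3200, 2671 and 3175 with dexamethasone. Every treated array was far above every control (2.83 ± 0.14, adjusted p = 2.4e-06). Decr1, the mitochondrial dienoyl-CoA reductase, went from 695, 716 and 699 to 1262, 1161 and 1360 (0.84 ± 0.13, adjusted p = 0.0013). Eci2, an enoyl-CoA isomerase of both organelles, went from 238, 352 and 327 to 676, 455 and 666 (0.97 ± 0.22, adjusted p = 0.00801). It kept its direction without replicate 1 but missed the threshold (0.70, adjusted p = 0.0519). Eci1, its mitochondrial relative, rose less (0.41 ± 0.12, adjusted p = 0.0261). The call was lost without replicate 1 (0.41, adjusted p = 0.0791) or 2 (0.32, adjusted p = 0.145), and in fits without pairs without any 1 control or dexamethasone 2 (0.29 to 0.45). Eci1 also missed the threshold with hybridization control scaling (0.17, adjusted p = 0.369) and with no intensity trend (adjusted p = 0.0664). Hsd17b10, a mitochondrial dehydrogenase that also acts in isoleucine breakdown, went from 1448, 1381 and 1686 to 4350, 4074 and 4665. The groups were far apart (1.54 ± 0.11, adjusted p = 1.3e-05).

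All genes of the electron transfer flavoprotein system, which collects electrons from the acyl-CoA dehydrogenases, rose. Etfa, the alpha subunit, went from 933, 1013 and 983 to 1846, 2149 and 2045 (1.04 ± 0.12, adjusted p = 0.000209). Etfb, the beta subunit, went from 1210, 1905 and 1374 to 3806, 3804 and 3116 (1.28 ± 0.14, adjusted p = 0.000191), with more spread among controls. Etfdh, the oxidoreductase that passes the electrons on to ubiquinone, went from 362, 322 and 365 to 530, 632 and 624 (0.77 ± 0.16, adjusted p = 0.00532). None of the 3 genes had overlapping groups.

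Of the ketone body genes, Acat1, the mitochondrial acetoacetyl-CoA thiolase, had 6551, 6904 and 6859 in controls and 8787, 8340 and 10118 with dexamethasone (0.42 ± 0.10, adjusted p = 0.00938). The rise was modest, and it no longer passed when arrays were quantile normalized (0.19, adjusted p = 0.119), when they were scaled to hybridization controls (0.17, adjusted p = 0.124), with no intensity trend, or without replicate 3 (0.35, adjusted p = 0.0699). Bdh1, which interconverts acetoacetate and 3-hydroxybutyrate, went from 257, 211 and 176 to 379, 419 and 253. Control 1 reached slightly above dexamethasone 3, so the groups overlapped, with a change of 0.69 ± 0.18 (adjusted p = 0.0177). That call was lost without replicate 1 (0.76, adjusted p = 0.0554) or 2 (0.54, adjusted p = 0.0938), and in fits without pairs without control 2 or 3 or dexamethasone 1 or 2 (0.55 to 0.69). With hybridization control scaling Bdh1 also missed the threshold (0.44, adjusted p = 0.0967). Its other probe set, too dim to test, read 87.5, 45.0 and 44.0 in controls and 211, 206 and 148 with dexamethasone.

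Of 9 tested peroxisomal enzymes, 6 rose and 3 did not pass, beside 17.0% and 61.6% of all genes tested. Ehhadh, the bifunctional hydratase and dehydrogenase of the peroxisomal spiral, was below background on every control array (48.3, 74.9 and 27.9) and read 831, 777 and 768 with dexamethasone. The treated arrays agreed closely, and the rise was at least 12.2-fold against the background level (adjusted p = 1.0e-05). Decr2, the peroxisomal dienoyl-CoA reductase, went from 345, 383 and 316 to 1073, 960 and 988 (1.54 ± 0.15, adjusted p = 7.9e-05). Phyh, which starts the breakdown of phytanic acid, a branched fatty acid, went from 1267, 1164 and 1474 to 2559, 3209 and 2721 (1.12 ± 0.14, adjusted p = 0.000357). In both genes every treated array was well clear of the controls. Cat, catalase, went from 1402, 1459 and 1442 to 1994, 2451 and 2415, a smaller rise with tight controls (0.67 ± 0.12, adjusted p = 0.00264). Scp2, a thiolase and sterol carrier, went from 1989, 1621 and 1612 to 2969, 3253 and 2342 (0.71 ± 0.13, adjusted p = 0.00313), and its other probe set rose by 0.44 ± 0.15 (adjusted p = 0.0471). Acox2, an oxidase of branched chains and bile acid intermediates, went from 220, 164 and 228 to 281, 433 and 340, with dexamethasone 2 the highest (0.78 ± 0.23, adjusted p = 0.027). Its call was lost without replicate 2 (0.47, adjusted p = 0.139) and, in fits without pairs, without control 2 (0.63, adjusted p = 0.0532) or dexamethasone 2 (0.62, adjusted p = 0.0598), and also with hybridization control scaling and with no filter.

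Hsd17b4, the other bifunctional enzyme of the peroxisome, gave 632, 692 and 701 in controls and 776, 799 and 696 with dexamethasone. The groups overlapped, and the change was 0.16 ± 0.14 (interval -0.15 to 0.48, adjusted p = 0.395). Acot8, a peroxisomal thioesterase, was at 289 ± 58 and 303 ± 59 (SD), a change of 0.07 ± 0.21 with an interval of -0.41 to 0.55. Crot, which makes carnitine esters of shortened chains for export, was at 162 ± 9 and 155 ± 69, a change of -0.16 ± 0.27 with an interval of -0.77 to 0.45, and a second Crot probe set gave 0.03 ± 0.25. The treated arrays of Crot were spread from 91.4 to 228, around the controls. Crat, which makes short carnitine esters in both organelles, had overlapping groups (393 ± 12 and 457 ± 113) and a change of 0.19 ± 0.17 (interval -0.19 to 0.58, adjusted p = 0.407).

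Genes of the peroxisomal membrane and of its assembly moved in different directions. Pxmp2, a membrane channel protein, went from 249, 167 and 265 to 419, 415 and 667 (1.13 ± 0.18, adjusted p = 0.00156), with no overlap. Pex14, a docking component for imported proteins, went from 632, 524 and 648 to 461, 406 and 438. All treated arrays lay below all controls, as they did in 28.1% of all genes, and the change was -0.46 ± 0.14 (adjusted p = 0.0332). This call was lost without any 1 of the 3 replicate pairs (-0.51 to -0.41), in fits without pairs without control 1 or 3 or dexamethasone 2, and with 75th percentile centring, median centring and quantile normalization. Pex2, an assembly factor with a ring finger, had 293, 285 and 288 in controls and 374, 410 and 393 with dexamethasone, with no overlap, and just missed the threshold (0.44 ± 0.16, adjusted p = 0.0568). It passed as higher in 8 alternatives, among them the fit with no replicate block (adjusted p = 0.0312), 75th percentile centring (0.57, adjusted p = 0.0217) and without dexamethasone 1 (0.48, adjusted p = 0.0475). Pex6, an ATPase of the export machinery, had 639, 434 and 725 in controls and 518, 389 and 329 with dexamethasone, which overlapped (-0.53 ± 0.20, interval -0.999 to -0.07, adjusted p = 0.0698). It passed as lower without control 2 (-0.75, adjusted p = 0.0266), without dexamethasone 1 (-0.71, adjusted p = 0.0442) and with hybridization control scaling. Pex11a, a gene of peroxisome division, was too dim to test and read 104, 63.4 and 83.7 in controls and 109, 122 and 166 with dexamethasone.

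Taking the organelles side by side, 15 of 19 tested mitochondrial genes rose, with 4 not passing, and 7 of 13 peroxisomal genes rose, with 1 lower and 5 not passing. Both counts stood above the 17.0% of all genes called higher. The genes were listed with earlier results known, so this is a description and not a test. The median change was 0.84 for mitochondrial and 0.67 for peroxisomal genes, a difference of 0.17. Within pairs the mitochondrial medians were 0.90, 0.98 and 0.78 and the peroxisomal medians 0.35, 0.75 and 0.54, beside -0.03, -0.08 and -0.01 for all genes. With membrane and assembly genes counted as peroxisomal, the mitochondrial median was thus the higher in each pair, by 0.54, 0.23 and 0.24. Mitochondrial genes ran from -0.10 to 1.74 and peroxisomal genes from -0.53 to 4.09. The upper end of the peroxisomal range was Ehhadh alone, whose controls were below background. The next highest peroxisomal gene, Decr2, was at 1.54. No test was made of the difference of medians, since genes of a list are not replicates. Without the membrane and assembly genes, the 9 peroxisomal enzymes had a median of 0.71. Within pairs the medians of these enzymes were 0.508, 1.005 and 0.577. The mitochondrial median was then the higher in pairs 1 and 3 and the lower in pair 2. The counts of risers ranged from 11 to 16 for mitochondrial and 6 to 8 for peroxisomal genes over 5 ways of scaling the arrays. Over the same scalings, 8.84% to 22.4% of all genes rose. The difference of medians was 0.083 without replicate 1 and 0.44 without replicate 2.

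**Figure D3:**
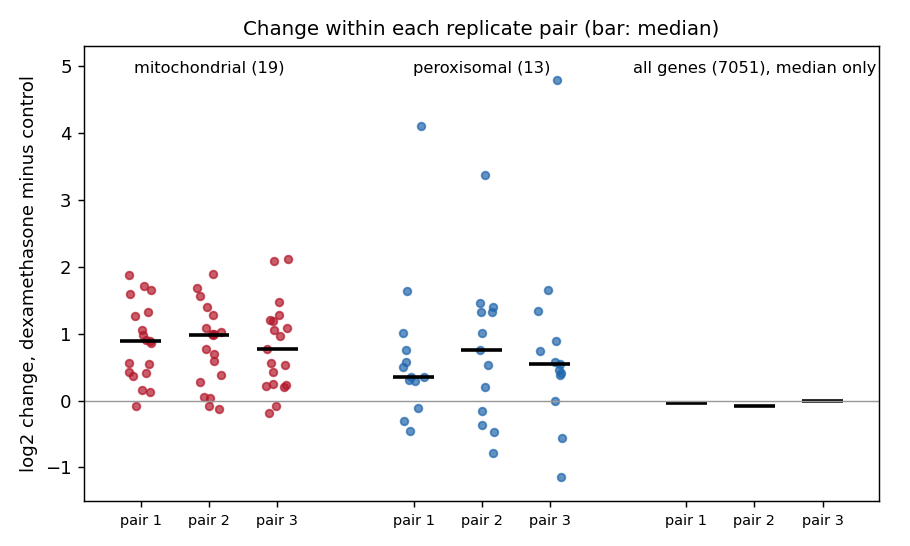
Log2 change within each replicate pair (y axis) for 19 mitochondrial and 13 peroxisomal genes, 1 point per gene, with black bars at the medians and the medians of all 7051 genes at the right. Mitochondrial medians lie between 0.78 and 0.98 and peroxisomal medians between 0.35 and 0.75, and those of all genes lie near 0.

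The acyl-CoA synthetases, which activate fatty acids on several membranes, went separate ways. Acsl3, known for activating fatty acids for lipid synthesis and lipid droplets, had 1308, 1067 and 1241 in controls and 223, 328 and 391 with dexamethasone. Every treated array was far below every control, and the change was -1.97 ± 0.19 (adjusted p = 9.8e-05). Acsl4, which favours arachidonic acid, went from 1371, 1243 and 1442 to 2230, 4194 and 3583, with no overlap and a wide treated range (1.26 ± 0.18, adjusted p = 0.000867). Acsl1, a major form of oxidative tissues, went from 1147, 943 and 1247 to 1573, 1737 and 1863 (0.64 ± 0.13, adjusted p = 0.0057). A second Acsl1 probe set gave 0.22 ± 0.19 (adjusted p = 0.391), and the mean of both missed the threshold (0.43, adjusted p = 0.0578), as did Acsl1 with hybridization control scaling (0.39, adjusted p = 0.0778). Acsl5, a form abundant in intestine and liver, rose by 0.40 ± 0.12 (adjusted p = 0.0279). It missed the threshold when any 1 replicate pair was left out (0.36 to 0.43), in fits without pairs without control 1 or 3 or dexamethasone 2, with no intensity trend and with hybridization control scaling. Acsl6 was below background on every array.

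**Figure D4:**
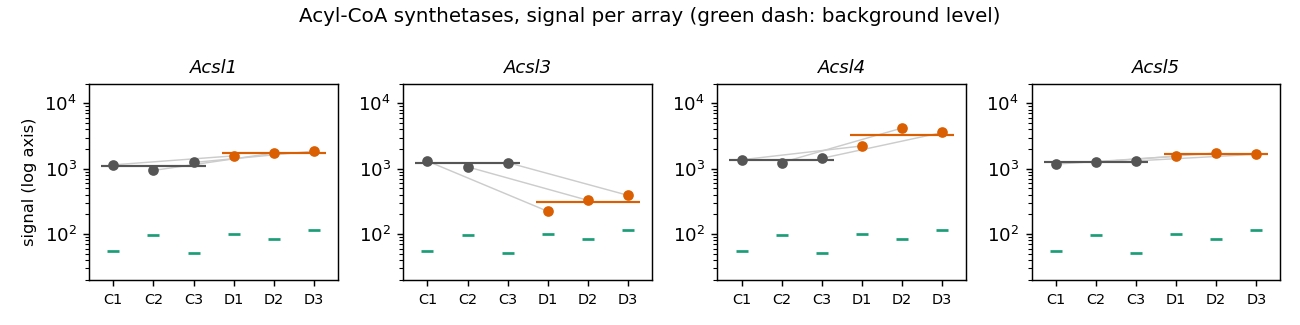
Signal (y axis, log scale) on each control (C1 to C3) and dexamethasone (D1 to D3) array for 4 acyl-CoA synthetase genes, with lines at group means and green dashes at the background level. Acsl3 falls from a mean of 1205 to 314 while Acsl4 rises from 1352 to 3335, and Acsl1 and Acsl5 shift less.

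Thioesterases, which release free fatty acids from coenzyme A, differed in brightness. Acot7, a cytosolic form, had 1488, 1670 and 1907 in controls and 2579, 1520 and 2640 with dexamethasone. Dexamethasone 2 lay among the controls, and the change of 0.38 ± 0.17 (interval -0.01 to 0.76, adjusted p = 0.119) passed without replicate 2 (0.63, adjusted p = 0.0275) and, in a fit without pairs, without dexamethasone 2 (0.64, adjusted p = 0.00881). Acot1 (5.9 to 35.5 in controls, 38.1 to 64.4 with dexamethasone) and the mitochondrial Acot2 (21.4 to 48.7 and 70.2 to 90.4) were below background on every array, and no fold was drawn from them. Acox3, a peroxisomal oxidase of branched chains, read 42.5, 97.0 and 66.2 in controls and 116, 80.1 and 101 with dexamethasone, and was above background on 1 array of each group.

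Counted as a group, the 11 genes that did not pass were Acads, Hadha, Hadhb, Hadh, Hsd17b4, Acot8, Crot, Crat, Acot7, Pex2 and Pex6. All 11 had 95% intervals within 1 of 0 on the log2 scale, that of Pex6 reaching -0.999. So had 4126 of the 4346 genes that did not pass overall (94.9%, or 58.5% of all genes tested), a share near that of the 11. Within 0.5 of 0 lay 5 of the 11, the 4 mitochondrial genes and Hsd17b4. The intervals of these genes leave smaller changes possible.

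A wider list of 86 genes around the same pathways had 64 on the array under a single symbol and 39 tested, of which 10 rose, 2 fell and 27 did not pass, with a median log2 change of 0.11. Of all genes tested, 17.0% rose, 21.4% fell and 61.6% did not pass, with a median of -0.04. Counting both directions, the share of the wider list that passed was not above that of all genes. By direction, its share of risers was above that of all genes and its share of fallers was below. Pdk4, which spares pyruvate when fat is burned, rose from 195 ± 10.1 to 925 ± 384 (SD), with dexamethasone 3 the highest at 1361 (2.17 ± 0.22, adjusted p = 0.000113). Pnpla2, the lipase that opens stored triglyceride, rose by 1.92 ± 0.20 and Slc27a1, a fatty acid transport protein, by 1.31 ± 0.17. Echs1, the mitochondrial short-chain hydratase of the spiral, rose from 902 ± 108 to 2445 ± 99.8 (1.45 ± 0.13, adjusted p = 4.8e-05). Mgll, which ends triglyceride breakdown, rose by 1.09 ± 0.26 (adjusted p = 0.0118) and Acad10 by 1.26 ± 0.39 (adjusted p = 0.0316). Both reached the brightness filter only through their treated arrays. The call of Mgll was lost without replicate 1 (0.84, adjusted p = 0.0953) and, in fits without pairs, without control 1 or 3 or dexamethasone 1 (0.88 to 0.98). That of Acad10 was lost without replicate 2 (1.56) or 3 (0.57) and, in fits without pairs, without control 3 (0.68) or any 1 treated array (1.15 to 1.42), as well as with hybridization control scaling (1.02, adjusted p = 0.0621), with no filter (adjusted p = 0.0817) and with no intensity trend (adjusted p = 0.0519). Fabp5, a fatty acid binding protein, fell from 3264 ± 252 to 739 ± 402 (-2.30 ± 0.26, adjusted p = 0.000221), and Dbi, which binds acyl-CoA, fell by 0.82. 

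Of the nuclear receptors of these pathways, Ppara was below background on all 6 arrays (16.9 ± 2.08 and 35.6 ± 10.3, SD) and so was its coactivator Ppargc1a. Ppard was present and did not pass (1150 ± 168 and 1067 ± 156, a change of -0.11 ± 0.14, adjusted p = 0.598). Pparg rose from 138 ± 7.88 to 216 ± 44.2 (0.63 ± 0.21, adjusted p = 0.0478). It entered the test only through its treated arrays, and it no longer passed with any 1 replicate pair left out (0.48 to 0.72), without any single array except dexamethasone 3 (0.47 to 0.66), with hybridization control scaling (0.38) and with no filter. Rxra, their common partner, was too dim to test (94.4 and 120). Pdk2 and Angptl4, named after their values were seen, were below background on every control array and above it on every treated array, at least 3.17-fold and 2.14-fold higher, and were too dim over all arrays to enter the main test.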

How the data were processed

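The deposited values were 1 intensity per probe set and array, linear MAS5 signals. The submitters' processing notes name GCOS and MAS5, and versions and settings are not given in the sources used here. Each array had a 2% trimmed mean signal near 500, which makes a signal a share of its array.

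Of 15866 non-control probe sets, 12783 had 1 symbol (GEO platform annotation, updated through RefSeq GRCr8), 312 had several and 2771 were unnamed here. After 4 values of 0 were set to 0.1, log2 signals of the 9520 probe sets whose mean reached the 40th percentile (a signal of 147.6) were fitted in limma 3.58.1 (R 4.3.3), with a treatment term, an intensity trend and the replicate number as a blocking term. Adjusted p-values are limma's, Benjamini-Hochberg over all probe sets tested. The design text calls the cultures pairs. That replicate numbers mark the pairs was assumed: deviations from the group means correlated -0.10, 0.11 and 0.21 between same-numbered arrays. Between differently numbered arrays the correlations ran from -0.25 to 0.18, so these values do not show which arrays are pairs. With no replicate block, 28 of the 40 genes rose and 2 fell. P-values cover the spread between cultures of 1 line.

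Where a gene was below background on every array of a group, its change was given as a bound. The fit was tested on simulated data. Genes with full values were those past the threshold with a log2 change of at least 0.58 in size and those that did not pass with the narrowest intervals, and other tested genes were added. From the wider list, genes with a change of at least 1 and the PPAR and RXR regulators were named, with Cpt1b, Cpt1c, Dbi, Pdk2 and Angptl4 added later. Lists, rules and members were chosen with earlier results of these data known. Other scalings, filters, a pseudocount of 50, averaged probe sets and leaving out pairs or arrays were tried. Protein sequences were not used here.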

Additional observations from a re-analysis of the deposited data

How the results depend on the processing

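Of the 29 genes called, 19 kept their call and direction in every alternative in which they were tested (up to 19), 10 lost the call in at least 1, and none changed direction. The number of genes that rose was 27 and ranged from 20 (hybridization control scaling) to 29 (75th percentile centring), and from 21 to 27 with a pair or an array left out. Beside these counts, 8.84% of all genes rose with hybridization control scaling and 22.4% with 75th percentile centring. With a pair or an array left out, 11.6% to 16.4% of all genes rose. With no replicate block 28 of the listed genes rose, and the block changed only the call of Pex2. The median log2 change of all genes was -0.04 as deposited, 0.08 with 75th percentile centring and -0.29 with hybridization control scaling. The 2 genes that fell became 1 with 75th percentile centring, median centring or quantile normalization, 4 with hybridization control scaling, and 1 to 3 with a pair or array left out, where 11 to 18 genes did not pass. The mitochondrial median was 0.96 with 75th percentile centring and 0.59 with hybridization control scaling, which gave 0.42 for peroxisomal genes; these shifts follow from the construction of a scaling that moves all genes alike. With pairs or arrays left out the medians were 0.78 to 0.91 and 0.47 to 0.75, and their difference 0.083 to 0.44. Changes of sign occurred in genes that did not pass. With hybridization control scaling Acads was at -0.10, Hadhb at -0.043, Hsd17b4 at -0.083, Crat at -0.053 and Acot8 at -0.18. With 75th percentile centring Hadha was at 0.085, Hadh at 0.028 and Ppard at 0.016, and Hadha was at 0.031 with median centring and 0.0010 with quantile normalization. With a pair or array left out Hadha ranged from -0.14 to 0.035, Crat from -0.00031 to 0.31, Crot from -0.49 to 0.17, Acot8 from -0.083 to 0.34 and Ppard from -0.25 to 0.027. The cause was not tested. Genes below or near the background level, which was 51.7 to 115.9, have only bounds or wide intervals.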
